A study of Mus musculus with 6 samples.

Results

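The dynein genes on the array were examined in whole testes of Dazap1 mutant (Fn) and wild-type (Wt) mice. They were taken as every gene whose symbol begins with Dnah, Dnai, Dnal, Dync, Dynl or Dnaaf, where 1 probe set names that gene alone, and each gene was read by its brightest such probe set. This gave 33 of 18193 genes, on 57 probe sets. They comprised 15 chains of axonemal dynein, 7 chains of cytoplasmic dynein, 6 light chains shared among dyneins and 5 assembly factors. Dnah8 and Dnali1, taken as the markers of the set, were bright in Wt testes, at percentiles 99.4 and 95.2 of the Wt signals.

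Mice homozygous for the floxed with neo (Fn) allele of Dazap1 were set against wild-type mice, both on a mixed C57BL/6 and 129 background and both at postnatal day 21 (P21), with 3 samples of each genotype and 1 one-colour Affymetrix array per sample. The Fn allele still makes a DAZAP1 protein, which carries an insertion between its RNA-binding domains, so it is not a null. Fn mice are growth retarded, and the paper raised the concern that their pachytene spermatocytes at P21 could be at an earlier stage than those of Wt mice. It describes P21 testes of both genotypes as made up mainly of pachytene spermatocytes, with haploid spermatids few or absent. According to the paper, adult mutant testes hold spermatocytes but lack germ cells past meiosis. In whole testes, fewer cells of a type and less RNA per cell cannot be told apart. Dazap1 itself had signals of 2538, 2735 and 2819.8 in Fn and of 4323, 4462 and 5046 in Wt testes. Its log2 change was -0.77, with an adjusted p of 6.7e-05 by limma.

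Dyneins are microtubule motors that walk towards the minus end. Axonemal dyneins form the outer and inner arms that bend cilia and the sperm flagellum. Each arm is built from heavy chains, which carry the motor, and from intermediate and light chains, and is put together in the cytoplasm by a set of assembly factors before transport to the axoneme. Cytoplasmic dynein-1 carries cargo and positions nuclei and spindles in nearly every cell, and dynein-2 drives return transport within cilia. In the testis, axonemal dynein genes are known as genes of meiotic and later germ cells that prepare the flagellum.

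The start regions of 5 members are shown first, since 4 of them share a short sequence known from genes of cilia. Promoter sequence was available for 29 of the 33 genes in the RefSeq table of build GRCm38.p6, and the 250 bases before each start were searched on both strands. A gene was counted when any of its listed starts matched, whereas the shares of all promoters count each start singly. A gene with several starts thus had more chances of a match. The X-box is the palindromic motif bound by RFX factors, which are known regulators of cilium genes. A form that reads GTTGC, then 3 bases of any kind, then GCAAC, the same on both strands, was found in Dnah7a, Dnah6, Dnaic2 and Dynlrb2, and in 0.207% of all 32851 promoters of that length. The form was chosen after these sequences had been seen. Each line gives the 120 bases before a listed start, 5′ to 3′ on the gene's strand, with the motif in capitals, and Dynlrb1 is the paralogue of Dynlrb2 without a match.
Dnah7a, chr1:53706785-53706904, minus strand: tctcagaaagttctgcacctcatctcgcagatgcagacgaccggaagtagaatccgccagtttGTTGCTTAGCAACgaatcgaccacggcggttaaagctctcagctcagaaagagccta
Dnah6, chr6:73221632-73221751, minus strand: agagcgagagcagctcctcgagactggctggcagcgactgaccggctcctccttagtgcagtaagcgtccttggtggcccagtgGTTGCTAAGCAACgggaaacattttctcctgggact
Dnaic2, chr11:114727299-114727418, plus strand: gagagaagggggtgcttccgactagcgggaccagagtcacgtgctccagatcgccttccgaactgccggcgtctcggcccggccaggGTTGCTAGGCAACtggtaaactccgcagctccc
Dynlrb2, chr8:116504895-116505014, plus strand: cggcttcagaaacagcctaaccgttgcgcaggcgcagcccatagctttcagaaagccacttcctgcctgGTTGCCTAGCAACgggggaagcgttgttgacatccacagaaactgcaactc
Dynlrb1, chr2:155236413-155236532, plus strand: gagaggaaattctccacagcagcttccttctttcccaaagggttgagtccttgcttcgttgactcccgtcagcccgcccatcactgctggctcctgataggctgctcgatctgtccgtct

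The motif began 57, 36, 33 and 51 bases before the start shown for Dnah7a, Dnah6, Dnaic2 and Dynlrb2. The starts shown for Dnah7a, Dnah6 and Dnaic2 lie inside the spans of these genes and not at their outer ends. Those ends are chr1:53707301, chr6:73222227 and chr11:114721341. A wider form, GTTNC, 3 bases of any kind and GNAAC, added Dnaic1 and Dnah9 and was found in 0.831% of all promoters. Neither form matched in the windows of Dnah8 and Dnali1. The cAMP response element TGACGTCA was found only in Dnah6 among the 29 genes, and in 1.55% of all promoters. The MYB core CNGTTG, which can overlap an X-box, was found in 15 of the 29 genes at any start, and in 29.3% of all promoters counted singly. These matches describe the letters in the window and were not tested against binding.

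Axonemal dynein genes were lower in Fn testes as a group, and cytoplasmic chains had smaller changes, in both directions. Without a filter on dim probe sets, 11 of the 15 axonemal chains were lower in Fn and 0 were higher (limma, adjusted p under 0.05). The same fit called 19.4% of all 18193 genes lower and 31.6% higher. The call of Dnah11 was lost with dim signals floored, which leaves 10. The median log2 change of the 15 chains was -2.59, against 0.29 for all genes. Of the 7 cytoplasmic chains, 4 were lower and 1 was higher, with a median of -0.40, and the lowest of them, Dync2h1, had -1.43. In 11 of the 15 axonemal chains all 3 Fn values lay below all 3 Wt values, as they did in 22.6% of all genes. The probe sets that passed the filter, a geometric mean signal over the 6 arrays of at least 48.0, cover 12 axonemal chains, of which 10 were lower with a median of -2.92. Among the 13447 genes that passed, 24.7% were lower and 44.9% higher. All later p-values are limma's, adjusted over the 27022 probe sets that passed, unless stated.

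**Figure D1:**
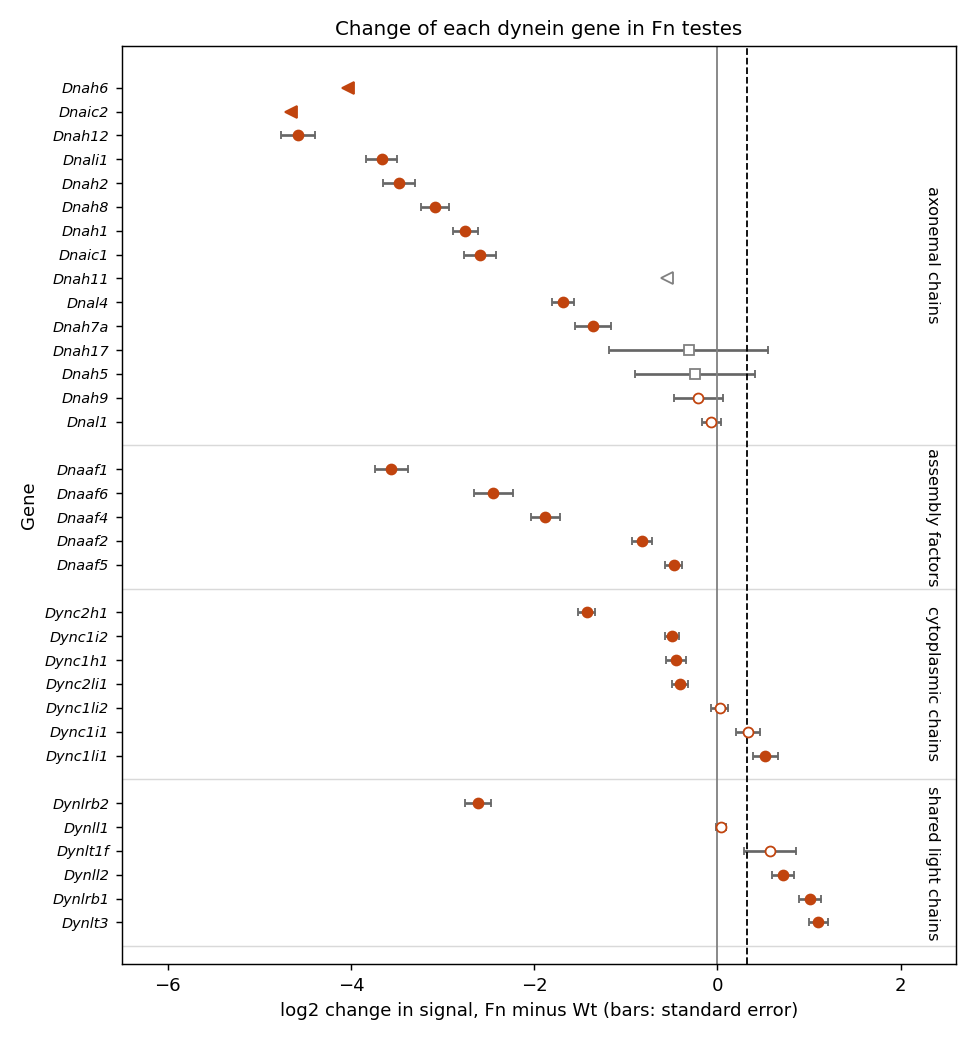
Log2 change in MAS5 signal, Fn minus Wt, of each of the 33 dynein genes in P21 testes (3 arrays per genotype), by class; bars are standard errors. Filled symbols are genes past an adjusted p of 0.05, open ones are not past it and grey squares lay under the filter. Triangles give the least fall of genes whose Fn mean of log2 signals was under the filter level, a grey line marks 0 and a dashed one the all-gene median of 0.32. Most axonemal chains lie below every cytoplasmic chain, the lowest of which is Dync2h1 at -1.43.

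The arrays had been brought to one level by their trimmed means, and on that scale the median log2 change of all 13447 genes was 0.32, or 0.17 with the arrays centred on their medians. Set against that median, the class medians of genes that passed the filter were -3.24 for axonemal chains, -2.20 for assembly factors, -0.73 for cytoplasmic chains and 0.32 for shared light chains. Most markers of germ cell stages moved with these falls. Among all genes that passed the filter, 24.7% were lower and 44.9% higher. Of 18 genes of pachytene spermatocytes, 14 were lower, and the summed signal of the 18 was 47405 to 58469 in Fn and 136390.2 to 144526 in Wt testes. The genes not called were Sycp3, Hormad1, Mybl1 and Calr3. Of these, the bright genes Sycp3 and Hormad1 had log2 changes of 0.10 and -0.11 (limma, adjusted p = 0.21 and 0.41). Of 21 round spermatid genes, 17 passed the filter, 15 of these were lower and 1, Tex101, was higher. Without the filter 17 of the 21 were lower and 1 was higher, against 19.4% and 31.6% of all genes. The summed signal of the 21 was 15526 to 17250.2 in Fn and 36019 to 38861 in Wt testes. Without Tex101, the brightest, it was 2615 to 3266 in Fn and 24034 to 28629 in Wt testes. Of 19 Sertoli cell genes, 18 were higher, with sums of 130139 to 131898 in Fn and 78425 to 91876 in Wt testes. Of 7 Leydig cell genes, 4 were higher and 0 lower. Of 13 macrophage genes that passed the filter, 5 were higher and 2 lower. The summed signals of the Leydig and macrophage lists overlapped between the genotypes. The part that cell composition has in the dynein falls was not tested.

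Of the 5 outer arm heavy chains, Dnah8 was the only one well above the filter level in Wt testes. Dnah8, a heavy chain of the outer arms of sperm on chr17:30626935-30875762, had signals of 1439, 1765 and 1089.6 in Fn and of 11974, 11027 and 12700.4 in Wt testes. The genotypes did not overlap, and the means were 1431 ± 338 in Fn and 11900.3 ± 839 in Wt testes (SD, n = 3 each). The log2 change was -3.08 (standard error 0.15, adjusted p = 3.8e-07), an 8.46-fold lower signal in Fn. A second probe set of Dnah8 lay under the filter in both genotypes.

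The other outer arm heavy chains were dim in both genotypes. Dnah9, a heavy chain of the outer arms of airway cilia, had signals of 96.0, 73.0 and 60.5 in Fn and of 88.0, 78.8 and 94.0 in Wt testes, which overlapped (log2 change -0.21, adjusted p = 0.51). Dnah5, another outer arm chain of cilia, had 44.4, 69.1 and 11.9 in Fn and 42.6, 28 and 50.9 in Wt testes, and Dnah17, known as a sperm outer arm chain, had 6.1, 35.6 and 25.8 in Fn and 41.6, 8.1 and 31.7 in Wt testes. Both lay under the filter and their values overlapped between the genotypes. Dnah11, an outer arm chain of cilia, had 42.8, 20.2 and 9.2 in Fn and 44.7, 67.8 and 113 in Wt testes. Its Wt mean was just above the filter level, so its fall was at least 1.46-fold, and its adjusted p was 0.045 in the fit without a filter. With signals floored and a filter on either genotype it was 0.10, so this call rests on signals under the filter level. Signals of all 4 of these chains were therefore at or near the filter level in both genotypes.

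All 5 inner arm heavy chains were lower in Fn testes, with or without the filter, against 24.7% and 19.4% of all genes. The log2 changes of the 4 with Fn signals above the filter level were -4.58 to -1.36. Dnah12, which belongs to the single-headed inner arm chains, had signals of 92.4, 79.0 and 59.8 in Fn and of 1692, 1627 and 2156 in Wt testes. This is a 23.9-fold lower signal in Fn (log2 change -4.58, standard error 0.19, adjusted p = 1.8e-07). The Fn signals of Dnah12 were near the filter level, so the size of this fall is uncertain. It was -4.74 to -4.09 across the processing settings. Dnah1, needed in mice and men for a normal sperm flagellum, had 329, 411 and 313 in Fn and 2171, 2264 and 2638 in Wt testes (log2 change -2.75, standard error 0.14, adjusted p = 3.8e-07). Its second probe set gave -1.80, also with no overlap. Dnah2, a chain of the double-headed inner arm, had 231, 305 and 194 in Fn and 2337, 2627 and 3049 in Wt testes (log2 change -3.47, standard error 0.17, adjusted p = 4.0e-07). In each of these 3 genes the Fn signals were still above the filter level.

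Dnah6, a further inner arm chain, had 36.8, 118 and 6.2 in Fn and 856, 1028 and 1353 in Wt testes. Of its Fn arrays, 1 lay above the filter level, and with the others set to that level the fall was at least 16.3-fold (adjusted p = 5.0e-04). The fitted log2 change of -5.14 had a standard error of 0.82 and depended on these dim values, being -4.03 with signals floored at the filter level, -4.01 without Fn replicate 3 and -6.13 without Fn replicate 2. Dnah7a had 359, 560.3 and 364 in Fn and 876, 1246 and 1137 in Wt testes, the smallest fall of the inner arm chains (log2 change -1.36, adjusted p = 2.8e-04). Mice carry near-identical copies of this gene, Dnah7b and Dnah7c, so its value is uncertain. A probe set named for these copies together had 1244, 1279.6 and 1048 in Fn and 5772, 5889.8 and 6839 in Wt testes, a log2 change of -2.37 (adjusted p = 2.5e-07).

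Both intermediate chains of the outer arm were lower by their brightest probe sets, and by unequal amounts. Dnaic2 had signals of 30.9, 41.0 and 48.6 in Fn and of 1131, 1017 and 1556 in Wt testes, a fall of at least 25.2-fold (adjusted p = 2.6e-07). Dnaic1 had 222, 278 and 189 in Fn and 1319, 1177 and 1634 in Wt testes (log2 change -2.59, adjusted p = 2.4e-06), and its second probe set gave -2.69. A second probe set of Dnaic2 lay under the filter, and its values overlapped between the genotypes (log2 change -0.56). Across the processing settings the log2 change was -5.10 to -2.75 for Dnaic2 and -2.75 to -2.43 for Dnaic1. The unequal fall thus rests on the brightest probe set of Dnaic2. With signals floored at the filter level, the fall of Dnaic2 exceeded that of Dnaic1 by at least 2.07 on the log2 scale. The within-array log2 ratio of Dnaic1 to Dnaic2, so floored, was 1.96 to 2.54 in Fn and 0.07 to 0.22 in Wt arrays, with no overlap. With 3 arrays against 3, the exact two-sided permutation p was 0.1, the smallest this design allows, in this pair and in each of the 6 paralogous pairs compared, before and after Benjamini-Hochberg adjustment.

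The 3 axonemal light chains differed from each other. Dnali1, the light chain of inner arms, on chr4:125055339-125065657, had signals of 224, 350.5 and 245 in Fn and of 3059, 3372 and 3788 in Wt testes. The means were 273 ± 67.9 in Fn and 3406 ± 366 in Wt testes (SD, n = 3 each), 12.7-fold lower in Fn (log2 change -3.66, standard error 0.17, adjusted p = 2.9e-07), and its second probe set gave -4.45. Dnal4, a light chain of the LC8 type, had 448, 474 and 532 in Fn and 1409, 1522 and 1748 in Wt testes (log2 change -1.68, adjusted p = 4.0e-06). Dnal1, the light chain that binds an outer arm motor domain, had 835, 945 and 941 in Fn and 920.2, 974 and 947 in Wt testes, which overlapped (log2 change -0.06, adjusted p = 0.61). The other probe sets of Dnal1 differed from the brightest. A dimmer probe set had 182, 217 and 156 in Fn and 325, 358 and 459 in Wt testes, a log2 change of -1.04 (adjusted p = 0.0010), and another, under the filter, had 14.2, 15.8 and 6.1 in Fn and 60.3, 36.3 and 44.3 in Wt testes. Their positions on the transcripts were not examined.

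All 5 assembly factors were lower in Fn testes, over a wide range, against 24.7% of all genes that passed the filter. Dnaaf1, which is needed to preassemble the arms, had signals of 1023, 1496 and 833 in Fn and of 12285, 12493 and 13578 in Wt testes. It fell by 3.56 on the log2 scale (standard error 0.18, adjusted p = 3.9e-07), and its second probe set gave -2.84. Dnaaf6, a PIH-domain factor, had 140.2, 150.2 and 87.9 in Fn and 681, 589 and 749 in Wt testes (log2 change -2.45, adjusted p = 1.3e-05). The RefSeq table places the gene of this probe set on chromosome 1. Dnaaf4, a factor with chaperone-binding repeats, had 427, 585 and 372 in Fn and 1621, 1712 and 1661 in Wt testes (log2 change -1.88, adjusted p = 1.1e-05), while its second, dimmer probe set overlapped between the genotypes (log2 change -0.07, adjusted p = 0.86). Dnaaf2 and Dnaaf5, which act early in folding the heavy chains, had smaller falls of 0.82 and 0.48 on the log2 scale (adjusted p = 1.6e-04 and 0.0015), each with no overlap. A probe set shared by Dnaaf2 with ribosomal protein genes was not used for it.

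**Figure D2:**
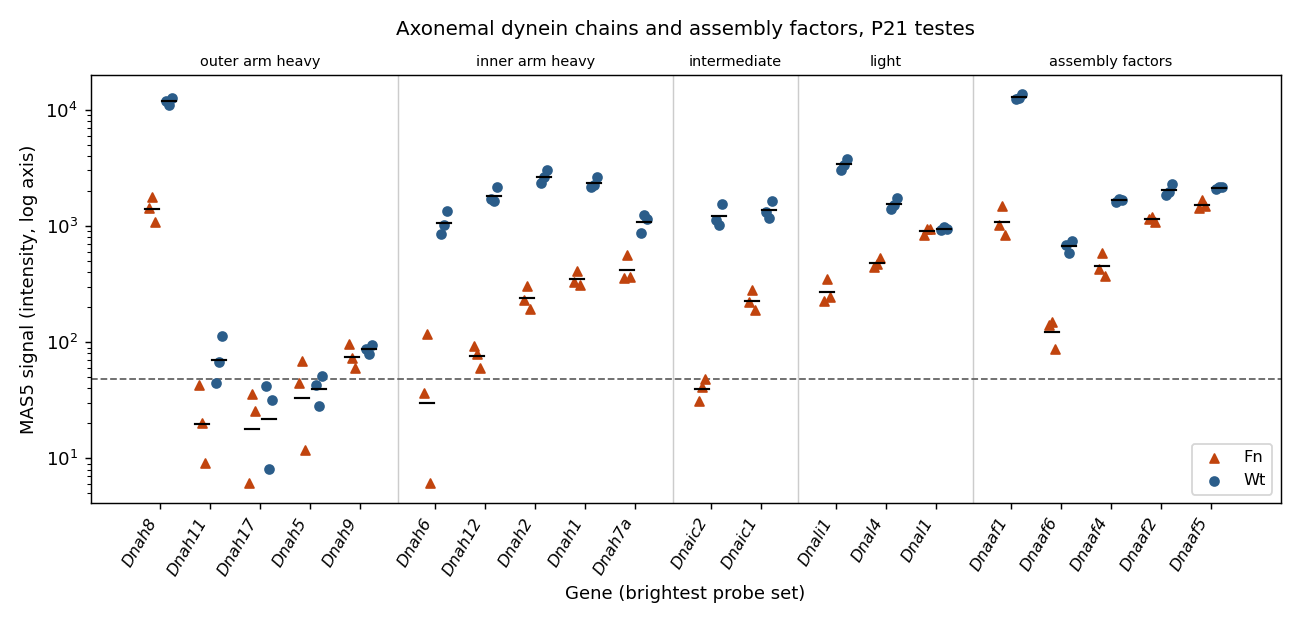
MAS5 signal on a log axis of each axonemal dynein chain and assembly factor in 3 Fn arrays (triangles, left) and 3 Wt arrays (circles, right) of P21 testes. Short bars give geometric means, and a dashed line marks the filter at 48.0. Dnah8 has Fn signals of 1089.6 to 1765 against 11027 to 12700.4 in Wt, while Dnah5, Dnah9, Dnah11 and Dnah17 lie near the dashed line in both genotypes.

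The spread among replicates was shared by many of these genes. Of the 15 axonemal chains and assembly factors that passed the filter and were lower, Fn replicate 2 had the highest Fn signal in 12 and Fn replicate 3 the lowest in 10. Among Wt arrays, replicate 3 was the highest in 12 of the 15 and replicate 1 the lowest in 10. The summed pachytene list was likewise highest in Fn replicate 2, at 58469, against 52023 and 47405 in the other Fn arrays, and highest in Wt replicate 3, at 144526. These genes share the same 6 arrays, and the part of cell composition in this order was not tested.

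Among the chains of cytoplasmic dynein-1, the changes were small and ran in both directions. Dync1h1, the single heavy chain of this motor, had signals of 3389.8, 4047 and 4274 in Fn and of 5019.7, 4941 and 6028 in Wt testes. It fell by 0.45 on the log2 scale (standard error 0.11, adjusted p = 0.0057). With the mean of its probe sets, of which 1 lay under the filter, the adjusted p was 0.19. Dync1i2, the intermediate chain found in most tissues, had 3157, 3302 and 2980.3 in Fn and 4327, 4499 and 4503 in Wt testes (log2 change -0.50, adjusted p = 3.5e-04). Its paralogue Dync1i1, best known from neurons, had 1095, 969 and 1170.2 in Fn and 737, 986 and 849 in Wt testes, which overlapped (log2 change 0.34, adjusted p = 0.050). This value lay at the threshold, and was 0.023 without Wt replicate 2 and 0.18 without Wt replicate 1. The log2 change of Dync1i1 was above that of Dync1i2 by 0.84 (standard error 0.16).

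The light intermediate chains, which link the motor to its cargo adaptors, showed no fall. Dync1li1 had 719, 629.5 and 644 in Fn and 456, 404 and 534 in Wt testes, higher in Fn by 0.52 on the log2 scale (standard error 0.14, adjusted p = 0.0083), with every Fn value above every Wt value. With the arrays centred on their medians the change was 0.36 and the adjusted p was 0.076. Dync1li2 had 2307, 2256 and 2104 in Fn and 2111, 2101 and 2346 in Wt testes, which overlapped (log2 change 0.02, adjusted p = 0.82), and its direction turned to -0.13 with that centring.

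Both chains of dynein-2, the motor of return transport in cilia, were lower. Dync2h1, its heavy chain, had signals of 1089, 1228 and 1166 in Fn and of 2927, 3081 and 3364 in Wt testes, the largest fall among the cytoplasmic chains (log2 change -1.43, standard error 0.095, adjusted p = 2.1e-06). Dync2li1, the light intermediate chain, had 1614, 1449 and 1521 in Fn and 1984, 1975 and 2104 in Wt testes (log2 change -0.40, adjusted p = 0.0032). Neither gene overlapped between the genotypes. The heavy chain of dynein-2 fell by 0.98 on the log2 scale relative to that of dynein-1 (standard error 0.083), with within-array ratios of -1.87 to -1.64 in Fn and -0.84 to -0.68 in Wt arrays.

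The shared light chains held the widest contrast between paralogues. Dynlrb2, a roadblock light chain, on chr8:116505015-116515915, had signals of 838, 1086 and 743 in Fn and of 4909, 5327 and 5903 in Wt testes. It fell by 2.61 on the log2 scale (standard error 0.14, adjusted p = 5.9e-07). Dynlrb1, the roadblock chain of most tissues, on chr2:155236533-155250277, had 3582, 2991 and 3709 in Fn and 1739, 1903 and 1462 in Wt testes, higher in Fn by 1.01 on the log2 scale (standard error 0.12, adjusted p = 9.5e-05). The log2 ratio of Dynlrb2 to Dynlrb1 within an array was -2.32 to -1.46 in Fn and 1.48 to 2.01 in Wt arrays, a difference of -3.62 (standard error 0.31).

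Dynll1, the LC8 light chain that also serves many proteins outside dynein, had signals of 18213, 18571 and 17559 in Fn and 18116, 17779 and 16931 in Wt testes. The genotypes overlapped (log2 change 0.04, standard error 0.054, adjusted p = 0.53), in each of its 4 probe sets, and median centring of the arrays turned it to -0.12. Dynll2, which differs little from it in protein sequence, had 6681, 8114 and 6295 in Fn and 4088, 4902 and 3853 in Wt testes (log2 change 0.71, adjusted p = 5.7e-04), and 0.27 by its second probe set, which also did not overlap. The change of Dynll2 exceeded that of Dynll1 by 0.67 (standard error 0.13).

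Dynlt3, a light chain of the Tctex1 family and the 1 X-linked gene of the 33, had 2917, 2823 and 2859 in Fn and 1439.5, 1429 and 1160.3 in Wt testes. The log2 change was 1.10 (standard error 0.10, adjusted p = 2.2e-05), and its 4 probe sets gave 1.01 to 1.18. Dynlt1f had 242, 307 and 369 in Fn and 131, 298 and 209.9 in Wt testes, which overlapped (log2 change 0.58, adjusted p = 0.10). With the replicate number as a block its adjusted p was 0.030, and without Wt replicate 2 it was 0.020. It is 1 of several near-identical Dynlt1 copies. Probe sets named for 4 of these copies together were far brighter, with 17309.6, 19250.2 and 16297 in Fn and 29796, 28954 and 27871 in Wt testes for 1 of them, a log2 change of -0.72 (adjusted p = 2.1e-05), so the direction of this subfamily depends on the probe set.

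**Figure D3:**
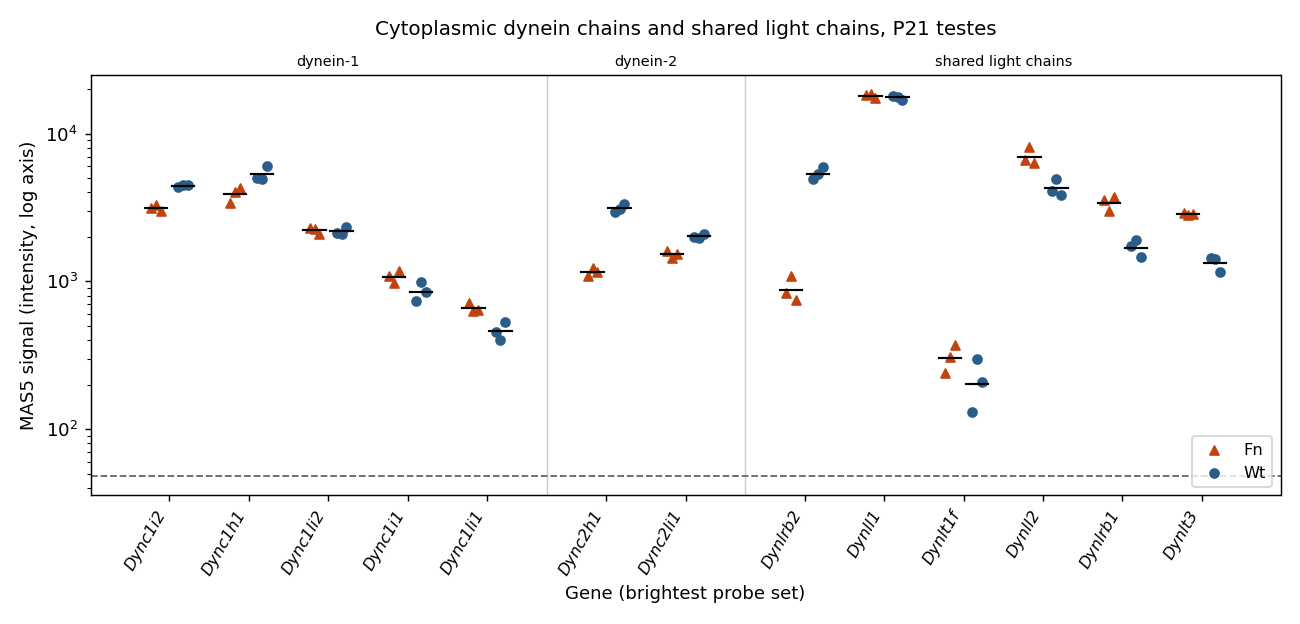
MAS5 signal on a log axis of each cytoplasmic dynein chain and shared light chain in 3 Fn arrays (triangles, left) and 3 Wt arrays (circles, right) of P21 testes. Short bars give geometric means, and a dashed line marks the filter at 48.0. Dynlrb2 lies at 743 to 1086 in Fn against 4909 to 5903 in Wt, and Dynlrb1 at 2991 to 3709 in Fn against 1462 to 1903 in Wt.

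Other genes of the same machinery were read from lists that were chosen with earlier results of these data known. Of 8 dynein subunits that the array names by other symbols, 6 passed the filter and all 6 were lower. Without the filter 6 of the 8 were lower and 0 higher. Among all genes, 24.7% were lower with the filter and 19.4% without it. Nme8, an outer arm protein of sperm, had 7.1, 4.2 and 20.4 in Fn and 896, 767 and 941 in Wt testes, at least 18-fold lower. Wdr63 and Wdr78, inner arm intermediate chains, had log2 changes of -3.52 and -2.63. The dynein-2 intermediate chains Wdr60 and Wdr34 had -1.13 and -0.85, and Tctex1d2, a light chain of dynein-2, had -1.74. Of 15 genes of the docking complex, which holds the outer arms on the microtubule doublets, and of the nexin-dynein regulatory complex (N-DRC) between doublets, 13 passed the filter and 13 were lower, with a median of -2.73, or -2.64 over all 15. They included Tcte1 of the N-DRC with -4.27, and Ttc25, Armc4 and Ccdc151 of the docking complex with -4.02, -3.85 and -2.64. The Fn signals of Tcte1 and Armc4 were near the filter level, so the sizes of their falls are uncertain. Of 15 further genes of arm assembly and attachment, 14 were lower (median -1.94), among them Ccdc40 with -3.63, Zmynd10 with -3.10, Spag1 with -2.33 and Ccdc39 with -1.94. By contrast Ruvbl1, a chaperone subunit used in every cell, had 0.04 (adjusted p = 0.71).

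Of 10 genes of dynactin, the complex that makes dynein-1 processive, 4 were lower and 3 higher, with a median log2 change of -0.03, against 24.7% of all genes lower and 44.9% higher. Without the filter 4 were lower and 1 higher. Actr1a, which forms the dynactin filament, had -1.08, Dctn2 had -1.04 and the filament cap gene Capza1 had -0.88, whereas its paralogue Capza2 had 0.68. Of 17 adaptors and regulators that passed the filter, 3 were lower and 11 higher, with a median of 0.48. Hook2, an adaptor of the Hook family, had 45.0, 46.9 and 74.9 in Fn and 1426, 1031 and 1639.5 in Wt testes. Its log2 change was -4.63 (adjusted p = 4.9e-07), of uncertain size because its Fn signals were near the filter level. Trak2, a mitochondrial adaptor, had 1.23 and Ndel1, a partner of the regulator Lis1, had 0.54. Hook1 had -0.19 (adjusted p = 0.073) and Hook3 had 0.50 (adjusted p = 0.0083).

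**Figure D4:**
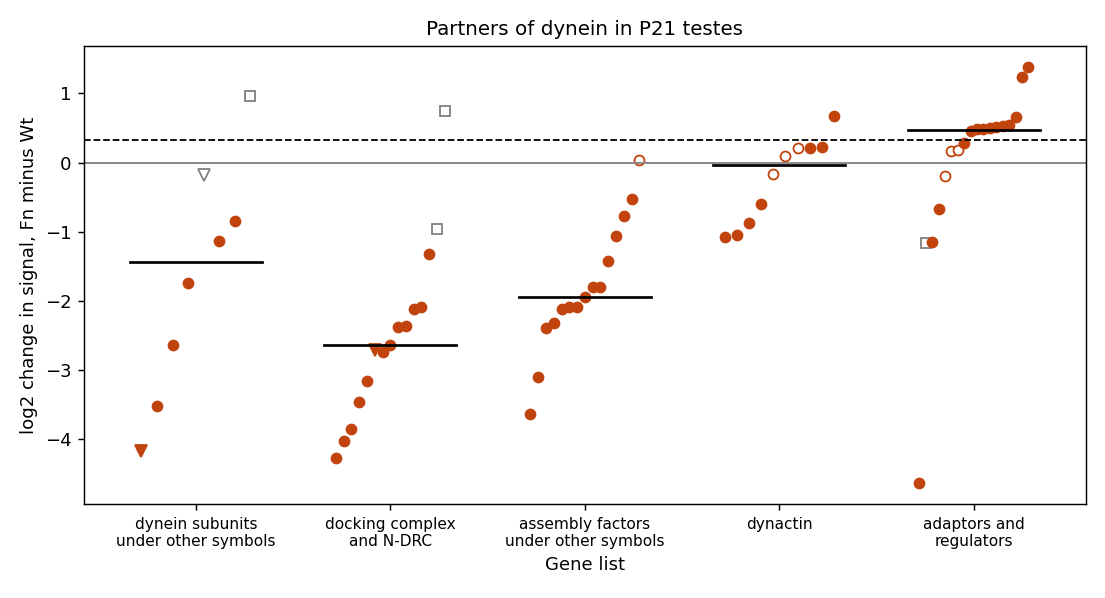
Log2 change in MAS5 signal, Fn minus Wt, of genes that work with dynein, in 5 lists, with 3 arrays per genotype. Symbols are filled past an adjusted p of 0.05, open when not past it and grey squares under the filter, and triangles give the least fall of genes whose Fn mean of log2 signals was under the filter level. Black bars give medians over every gene of a list on the array, a grey line marks 0 and a dashed one the all-gene median of 0.32. The docking and N-DRC list has a median of -2.64 and the list of adaptors and regulators 0.47.

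Motile cilia outside the germ line also carry axonemal dynein, as in the efferent ducts next to the testis. Of 10 listed genes of multiciliated cells, 5 could be read on the array. Of these 5, 3 were lower, namely Foxj1, Deup1 and Cdhr4, against 19.4% of all genes without a filter. Ccno had a log2 change of 0.12 (adjusted p = 0.71) and Cdhr3 lay under the filter. Their summed signal was 365 to 493 in Fn and 4304 to 4742 in Wt testes, and without Cdhr4, the brightest, 254 to 266 in Fn and 1297 to 1611 in Wt testes. Foxj1, the regulator of motile cilium genes, had 65.2, 49.5 and 59.6 in Fn and 230.1, 206 and 240 in Wt testes. Deup1, taken as a defining gene of multiciliated cells, had 84.8, 112 and 51.9 in Fn and 1261, 949.6 and 1127 in Wt testes. It was the only 1 of 5 genes listed as defining these cells that could be read on the array. Of 7 epididymis genes, 4 passed the filter, and 1, Rnase10, was lower and 0 were higher (limma). Their sums were 1166 to 2806 in Fn and 586 to 1958 in Wt testes, and without Spink8, the brightest, 294 to 399 in Fn and 329.8 to 425 in Wt testes. The part of such cells in the dynein signals was not tested.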

How the data were processed

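RNA of 3 Fn and 3 Wt testes at P21 was measured on Affymetrix Mouse Genome 430 2.0 arrays. The values the authors deposited were MAS5 signals, which are intensity values on a linear scale, for 45037 probe sets, with arrays scaled to one level (trimmed mean 498.4 to 498.6). MAS5 is named without a version in the submitters' processing notes. The platform annotation named 1 gene for 34945 probe sets, several for 932 and none for 9160. The 1 value of 0 was set to 0.1.

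Log2 intensities were compared, Fn minus Wt, by the lmFit and trend-eBayes functions of limma 3.58.1 (R 4.3.3) over the 27022 probe sets at or above the 40th percentile of mean log2 signal, with Benjamini-Hochberg adjustment over them. Where a group's mean log2 signal lay under the filter level, the fold was given as a bound, with each of its arrays at the higher of its own signal and 48.0. The members, classes, gene lists and tests were chosen with earlier results of these data known. Each member was to be named, with values per array for the markers, the paralogous pairs and up to 3 genes of smallest p per class; the values of the remaining members were added after they were seen. Of partner genes, the 3 of smallest p per list were to be named, and any further partner was picked with its values in view. The X-box form was likewise chosen late. The paper states that the RNA preparations differed and does not name the animals behind them, so the p-values rest on the spread among these samples alone. The number of arrays limits the precision.

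Spearman correlations between arrays were 0.951 to 0.961 within and 0.897 to 0.914 between genotypes. After the group means were taken off, Fn and Wt arrays of the same number correlated at 0.13, 0.12 and 0.16. Those of different numbers correlated at -0.15 to 0.04. The paper does not state a pairing of the samples. The main fit and the permutation tests took the arrays as unpaired, and the replicate number entered only as a block in a refit. The steps were tested on simulated data over 27022 probe sets. For Fn against Wt, a simulated log2 change of -2 was recovered in 86% of 50 probe sets and one of -1 in 52% of 50. The rates for 2 and 1 were 86% and 68%, and 3.95% of calls fell on unchanged probe sets. Few probe sets were changed in the simulation, whereas 24.7% of genes were called lower and 44.9% higher in the data. The adjusted threshold therefore differs, and these rates do not carry over to the real comparison.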

Additional observations from a re-analysis of the deposited data

How the results depend on the processing

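Each of the 30 genes that passed the filter was refitted under up to 21 alternatives, which covered scaling, filter, pseudocount, floor, prior variance, array weights, probe set, threshold, the replicate block and leaving out each array. The floor together with a filter on either genotype, and the floor in the paralogous pairs, were chosen after seeing the data; the floor changed only the pair of Dnaic1 and Dnaic2, by less than the spread between replicates (2.07, against 2.36 without it). Of 608 refits 593 kept direction and side of the threshold or were uncalled throughout, 12 gained a call, 3 lost one and 0 turned a called direction. In every refit 24 genes stayed on the same side of the threshold. These include Dnah9, Dync1li2 and Dynll1, which were never called. The 5 falls of assembly factors that could be tested were called in each refit except that of Dnaaf4 with the second brightest probe set, which only some genes have. Of axonemal chains, 10 were lower in most refits, 9 of 10 tested with a filter at the 60th percentile, and 11 with no filter, with a filter on either genotype or with the mean of probe sets. Dnah11 was the addition in the fits with no filter and with a filter on either genotype, and was not called with signals floored as well. With the second brightest probe set 4 of 4 axonemal chains, 2 of 3 assembly factors, 0 of 1 cytoplasmic chains and 0 of 3 shared light chains were lower, and 0 cytoplasmic chains were higher. The count of cytoplasmic chains that were higher was 0 with arrays centred on their medians. It was 2 with a filter at the 60th percentile, a pseudocount of 32, signals floored at the filter level (also with a filter on either genotype), array weights and the mean of probe sets, each time by the addition of Dync1i1, and 1 to 2 without 1 array. With the replicate number as a block, 10 axonemal chains were lower and 4 shared light chains were higher, the addition being Dynlt1f, and no other call of the 30 genes changed. Signals near the filter level of 48.0 limit Dnah5, Dnah9, Dnah11 and Dnah17.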
